A study of Mus musculus and Homo sapiens with 20 samples.

Results

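Complex I genes were followed through chromatin accessibility in mouse hepatocytes. Members were chosen by position and name: peaks listed in the 12 hepatocyte libraries were joined into regions wherever 1 bp or more was shared, and a region was a member when its nearest protein-coding gene body, within 50 kb, had a symbol beginning Nduf followed by a, b, c, s or v. This took in 697 of 642948 regions, near 47 of the 49 such genes in the gene table (GRCm38.p6, the assembly of mm10). Of the 697, 142 had a peak in all 12 libraries (20.4%, against 15.8% of all regions) and entered the tests, and 555 did not. The symbol also covers assembly factors, and it covers Ndufa4 and Ndufa4l2, whose proteins are not complex I subunits.

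The assay was ATAC-seq, in which the transposase Tn5 cuts open DNA. All 12 libraries came from hepatocytes with a floxed aryl hydrocarbon receptor gene (AhR_flox in the labels), labelled 4 weeks, in 4 groups of 3: control with Ad_Cont, vitamin B2 deficiency (B2_minus) with Ad_Cont, control with Ad_Cre, and B2_minus with Ad_Cre. Cre recombinase deletes DNA between loxP sites, so each group carried the floxed gene and received either Ad_Cont or Ad_Cre. The labels do not say how or when Ad_Cre was given, what drives Cre, which part of Ahr is floxed, the age of the animals, or whether replicates were separate animals or cultures. The p-values therefore measure only the spread between these libraries, which may be technical.

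Complex I (NADH:ubiquinone oxidoreductase) takes electrons from NADH, passes them to ubiquinone and pumps protons across the inner mitochondrial membrane. Electrons enter on flavin mononucleotide (FMN), a cofactor made from vitamin B2 and held by Ndufv1. They then run along iron-sulphur clusters, including those of Ndufs1, Ndufs8 and Ndufs7, to the quinone site. Nuclear genes encode these core subunits of the matrix arm and all accessory subunits, while the core of the membrane arm is encoded by mitochondrial DNA, which carries no member here. In liver the complex reoxidises the NADH made by fat oxidation and other pathways.

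RefSeq start-site windows (GRCm38.p6, 250 bases before to 50 after the start) were at hand for 42 of the 49 genes, as 44 windows. The 5 printed here belong to Ndufv1 and Ndufs8, the core genes with the most open starts, and to Ndufs7, Ndufa6 and Ndufs4, which had a region elsewhere that differed by diet. Of the other genes with such a region, the Ndufa13 window, which held none of the motifs searched, is not printed, and Ndufa4l2 was not in the table. They run 5′ to 3′ on the gene's strand, and capitals mark a match to a searched motif.
Ndufv1 (chr19:4012706-4013005, minus strand): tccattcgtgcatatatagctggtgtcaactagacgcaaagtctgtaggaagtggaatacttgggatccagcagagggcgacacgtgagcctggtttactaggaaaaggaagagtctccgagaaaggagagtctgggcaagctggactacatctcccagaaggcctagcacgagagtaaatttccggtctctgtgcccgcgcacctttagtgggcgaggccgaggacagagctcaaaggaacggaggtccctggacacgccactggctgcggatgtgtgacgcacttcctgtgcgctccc
Ndufs8 (chr19:3912725-3913024, minus strand): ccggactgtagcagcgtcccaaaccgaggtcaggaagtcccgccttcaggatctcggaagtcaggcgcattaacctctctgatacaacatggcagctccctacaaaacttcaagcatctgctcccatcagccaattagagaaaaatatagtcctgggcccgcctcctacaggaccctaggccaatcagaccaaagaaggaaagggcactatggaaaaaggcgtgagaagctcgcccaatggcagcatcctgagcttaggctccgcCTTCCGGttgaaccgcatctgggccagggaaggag
Ndufs7 (chr10:80249199-80249498, plus strand): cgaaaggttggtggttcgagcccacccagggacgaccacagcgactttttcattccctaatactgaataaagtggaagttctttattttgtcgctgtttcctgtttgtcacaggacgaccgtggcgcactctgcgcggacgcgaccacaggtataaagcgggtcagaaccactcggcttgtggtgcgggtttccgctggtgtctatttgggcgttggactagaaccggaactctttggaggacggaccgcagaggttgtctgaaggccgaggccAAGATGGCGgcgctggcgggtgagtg
Ndufa6 (chr15:82354242-82354541, minus strand): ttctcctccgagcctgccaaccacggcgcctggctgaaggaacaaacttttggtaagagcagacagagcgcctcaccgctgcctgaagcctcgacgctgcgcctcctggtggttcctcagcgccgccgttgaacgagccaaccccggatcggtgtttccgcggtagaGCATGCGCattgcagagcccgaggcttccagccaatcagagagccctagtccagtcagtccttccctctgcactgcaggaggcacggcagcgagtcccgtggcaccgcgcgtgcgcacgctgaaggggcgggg
Ndufs4 (chr13:114388045-114388344, minus strand): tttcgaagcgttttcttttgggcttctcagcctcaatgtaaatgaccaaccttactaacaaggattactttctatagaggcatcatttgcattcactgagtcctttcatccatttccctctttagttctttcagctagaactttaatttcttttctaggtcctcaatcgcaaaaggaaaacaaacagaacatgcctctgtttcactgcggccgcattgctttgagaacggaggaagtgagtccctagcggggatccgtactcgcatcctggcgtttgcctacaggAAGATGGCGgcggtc

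Motifs of factors known to act at genes of the respiratory chain were searched on both strands as exact letters: NRF1 as GCGCATGC, the ETS family (which includes GABP) as CCGGAAG, the oestrogen-related receptors as TCAAGGTCA and YY1 as AAGATGGCG. The YY1 letters stood in 6 of the 44 Nduf windows (13.6%), against 1.83% of all 21263 windows of the same length. All 6, at Ndufa9, Ndufaf8, Ndufc1, Ndufs4, Ndufs6 and Ndufs7, lay on the gene's own strand after the start, with their first base between position 11 and position 36 (position 1 is the first transcribed base). The NRF1 letters stood in 5 windows (11.4%, against 3.52% of all), those of Ndufa6, Ndufa8, Ndufa11, Ndufaf4 and Ndufaf5. In Ndufa11, Ndufaf4 and Ndufaf5 a match on one strand overlapped a match on the other, and a window was counted once. The ETS letters stood in 6 windows (13.6%, against 11.6%), those of Ndufs3, Ndufs8, Ndufb6, Ndufb7, Ndufaf1 and Ndufaf8, and the oestrogen-related receptor letters in 0 (against 0.334%). At least 1 of the 4 motifs was found in 16 of the 44 windows (36.4%), against 16.03% of all. Nduf windows had a median GC content of 59.3% and all windows 56.3%, and the part of base composition in these shares was not tested. The matches are of letters alone, and binding of the factors was not tested. The Ndufv1 window held none of the 4.

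The starts of 41 complex I genes were open in every library, and none passed the test for a difference by diet. Of the 142 tested members, 44 lay at the start site of their own gene (within 250 bp), for 41 genes. The level of a region is given as scaled tags, the tag count of its highest peak divided by the library's relative size. Nearly all peaks had the same width, so levels of different genes refer to the same length. The median level at these 44 regions was 60.7 scaled tags (lowest 26.1, highest 102.2), against 56.5 at all start-site regions of the table, and 61.4% of the 44 reached that overall median. The other 98 members had a median of 19.4.

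**Figure D1:**
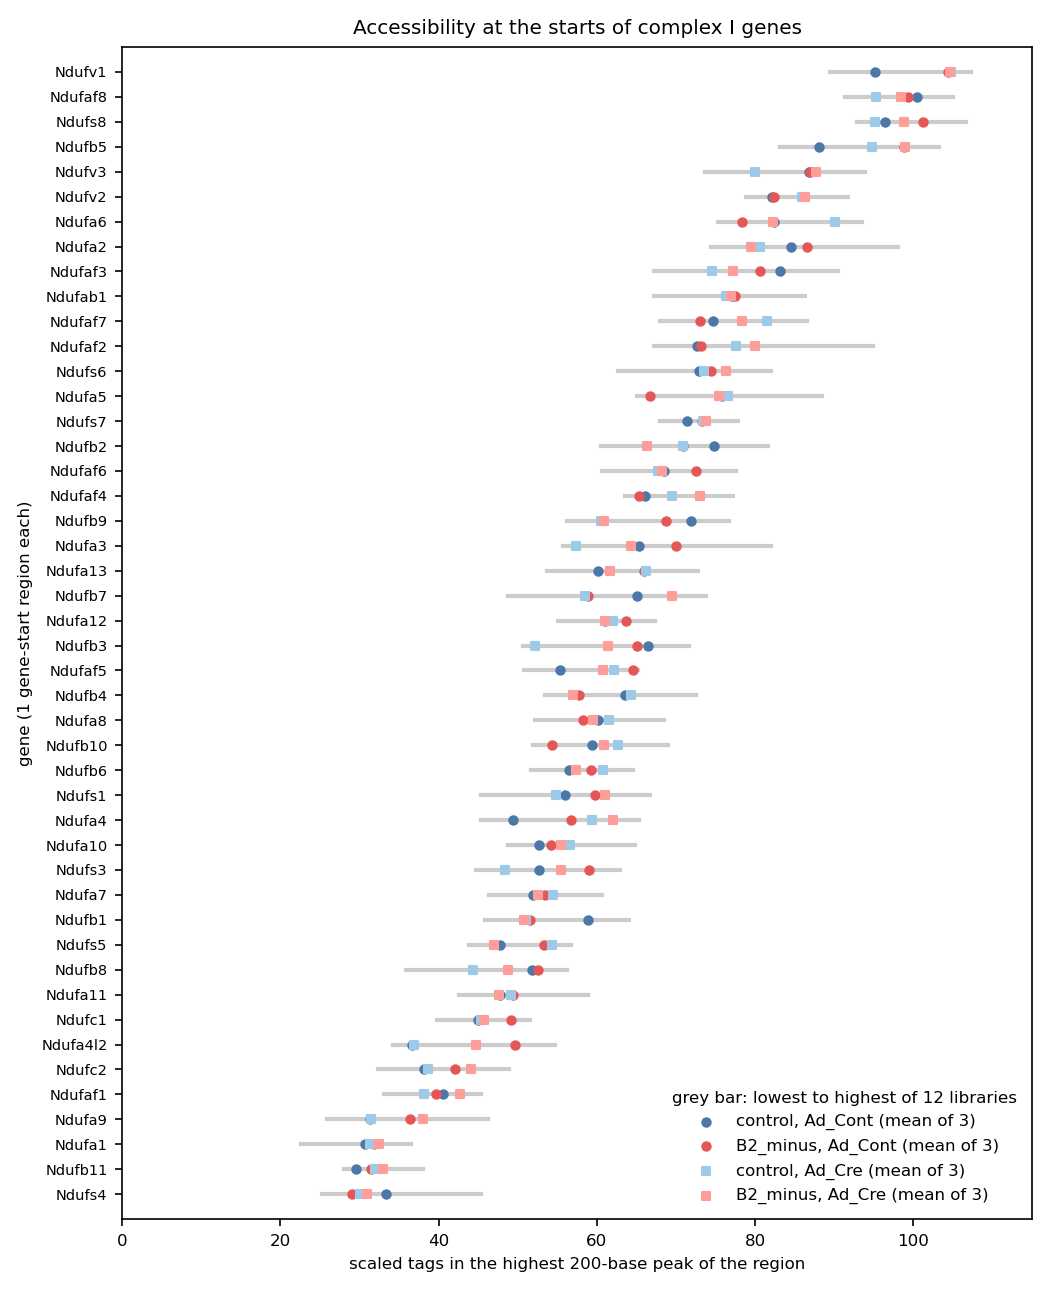
Accessibility at the gene-start region of 46 genes: each row is 1 gene, points are group means of 3 libraries, and the grey bar spans the 12 libraries (x axis, scaled tags). Ndufv1 lies at the top with 102.2 and Ndufs4 at the bottom with 30.9, and the 4 group means of a gene lie close together compared with the distance between genes.

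Among the core genes of the NADH end, Ndufv1 had the highest start of all members (chr19:4012647-4012943). Its start held 89.5, 93.6 and 102.6 scaled tags in the 3 control libraries with Ad_Cont, 101.3, 104.5 and 107.3 in B2_minus with Ad_Cont, 103.7, 105.4 and 105.1 in control with Ad_Cre, and 105.3, 104.4 and 104.3 in B2_minus with Ad_Cre. Only replicates 1 and 2 of control with Ad_Cont lay below 100, and with Ad_Cre the diets overlapped. Averaged over Ad_Cont and Ad_Cre, the log2 fold change of B2_minus against control was 0.06 (SE 0.053, adjusted p = 0.544, edgeR quasi-likelihood test with Benjamini-Hochberg adjustment over all regions). The start of Ndufv2, which carries an iron-sulphur cluster beside the FMN, held 80.7, 82.6 and 83.1 in control with Ad_Cont and 85.1, 81.0 and 81.0 in B2_minus with Ad_Cont. With Ad_Cre it held 91.5, 86.5 and 79.7 in control and 91.8, 88.1 and 78.9 in B2_minus, so both pairs of diets overlapped (log2 fold change 0.01, SE 0.060, adjusted p = 0.967). Ndufs1, which carries several clusters of the electron path, has no start in the table. The region at its gene end, equally near Eef1b2, averaged 57.9 scaled tags and changed by 0.12 (SE 0.078, adjusted p = 0.412). A weak region 6877 bp outside Ndufs1 changed by 0.63 with Ad_Cont (unadjusted p = 0.0139, adjusted p = 0.231). Averaged over both arms it changed by 0.35 (unadjusted p = 0.0519, adjusted p = 0.259), and its mean of 10.1 scaled tags lay near the lowest listed counts.

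Among the quinone-end core genes no start passed the test either. The Ndufs8 start held 102.8, 93.6 and 92.8 scaled tags in control with Ad_Cont, 94.1, 106.6 and 103.1 in B2_minus with Ad_Cont, 94.8, 93.5 and 97.3 in control with Ad_Cre, and 98.0, 101.5 and 97.0 in B2_minus with Ad_Cre. Its diets overlapped in both arms (log2 fold change 0.06, SE 0.054, adjusted p = 0.591). The start of Ndufs7, which carries the last cluster before the quinone, averaged 73.0 with a log2 fold change of 0.02 (SE 0.066, adjusted p = 0.907). Ndufs3 shares its start with Kbtbd4. That region held 60.8, 50.8 and 46.4 in control and 58.2, 62.9 and 55.8 in B2_minus with Ad_Cont, and 51.8, 48.7 and 44.7 in control and 52.2, 51.7 and 62.6 in B2_minus with Ad_Cre. With Ad_Cre its B2_minus values were all above 2 of the 3 control values but not all above the highest, and the averaged change of 0.19 (SE 0.082, unadjusted p = 0.0234, adjusted p = 0.170) had the lowest adjusted p of the 44 start-site regions.

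Accessory subunits surround the core. The 10 matrix-arm accessory genes with a gene-start region had a median level of 74.0, from Ndufv3 with 85.3 to Ndufs4 with 30.9. The 20 membrane-arm genes had a median of 58.9, from Ndufb5 with 95.2 to Ndufb11 with 31.5. The Ndufb5 start, which was the fourth most open, held 88.4, 92.6 and 83.1 in control and 99.5, 98.1 and 98.9 in B2_minus with Ad_Cont. With Ad_Cre it held 90.4, 99.4 and 94.6 against 103.3, 92.9 and 100.6, so the diets were apart in the first arm and overlapped in the second (averaged log2 fold change 0.11, SE 0.055, unadjusted p = 0.0462, adjusted p = 0.244). Ndufa9, which sits beside the quinone site, had the largest rise of a start site in size, 0.25 (SE 0.111, adjusted p = 0.187), and Ndufb4 the largest fall, -0.15 (SE 0.075, adjusted p = 0.242). Neither passed the test. The 8 Nduf assembly factors, which build the complex but are not part of it, had a median start level of 72.6, from Ndufaf8 with 98.4, on a start shared with Tepsin, to Ndufaf1 with 40.3.

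By the most open tested region of each gene, the 5 highest after the core genes were Ndufaf8, Ndufb5, Ndufv3, Ndufa6 (83.3) and Ndufa2 (82.8), and the 5 lowest Ndufb11, Ndufa1 (31.6), Ndufa9 (34.3), Ndufaf1 and Ndufc2 (40.7). Neighbours in this order mostly did not differ beyond their spread: the highest of the 12 libraries exceeded the lowest by 1.34-fold at the median gene-start region (1.14-fold at the narrowest, 1.80-fold at the widest). The bottom and the top of the order did not overlap, since the highest library of Ndufa1 (36.5) lay below the lowest library of Ndufv1 (89.5). Ndufa1 and Ndufb11 are the members on the X chromosome, where the 378 start-site regions had a median of 39.7, against 57.3 at 11459 autosomal ones.

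Across the 44 start-site regions the averaged log2 fold changes ran from -0.15 to 0.25, and 30 were positive. Of all 11837 start-site regions, 5765 were positive. The median change was 0.02 at the 44 and -0.004 at all start-site regions. None of the 44 was called (adjusted p under 0.05), where 3.24% of all 11837 start-site regions were. For all 44, the 95% confidence interval of the log2 fold change lay within 0.5 of 0, as it also did for Ad_Cre against Ad_Cont. At an unadjusted p under 0.05 there were 4 of the 44 (Ndufs3, Ndufa9, Ndufb4 and Ndufb5). That is 9.09%, against 15.5% of all start-site regions. These intervals rest on a spread between replicates below counting noise: the chi-square of replicates per region and degree of freedom was 0.595 to 0.620 in the 4 groups, where independent counts give about 1.

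**Figure D2:**
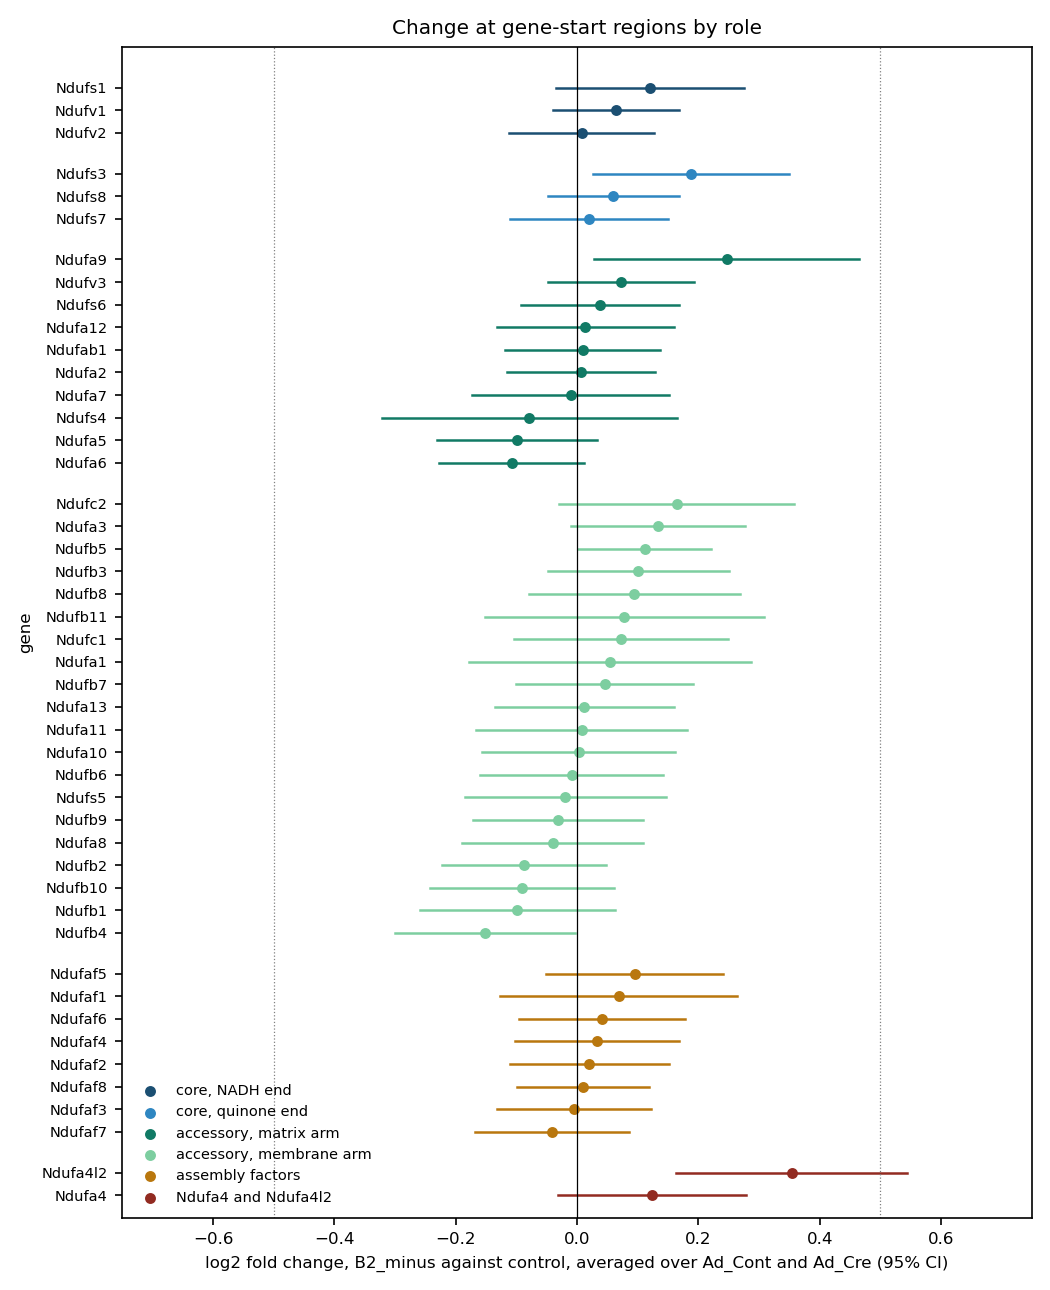
Log2 fold change of B2_minus against control at the gene-start region of 46 genes, averaged over Ad_Cont and Ad_Cre, with 95% confidence intervals, grouped by role. The dotted lines mark 0.5 either way, and only the interval of Ndufa4l2, whose region lies at a gene end and not at a tabulated start, passes one of them.

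Outside the tabulated start sites, 6 member regions were more open in B2_minus than in control, and none was less open. That is 6 of 142 in the averaged contrast, where 5.78% of all 101575 regions were called in either direction and 2.45% were called higher. Among members outside the tabulated start sites it is 6 of 98, and 6.11% of all regions away from any tabulated start were called. The 98 include 8 regions at a gene end with no tabulated start, 1 of them called (Ndufa4l2). The members' share is thus near the background. At an unadjusted p under 0.05 there were 20 of 142 members (14.1%), against 19.7% of all regions. The median log2 fold change was 0.02 over the members and 0.00 over all regions. In single arms 1 member was called with Ad_Cont (1.04% of all regions) and 0 with Ad_Cre (1.13% of all regions), where 13 had an unadjusted p under 0.05 (9.15%, against 13.4% of all regions). With library sizes taken from all listed tags in place of TMM there were 15 (10.6% of members, against 11.6% of all regions), and that scaling raised the median of all regions by 0.10. All 6 calls were lost under edgeR with its dispersion held at or above counting noise (adjusted p of 0.0510 to 0.292). DESeq2 called none of the 6 (lowest adjusted p 0.431), but it gave no adjusted p for the weak region inside Ndufa4l2. Leaving out replicate 3 of B2_minus with Ad_Cont, or replicate 3 of B2_minus with Ad_Cre, left 3 calls each.

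**Figure D3:**
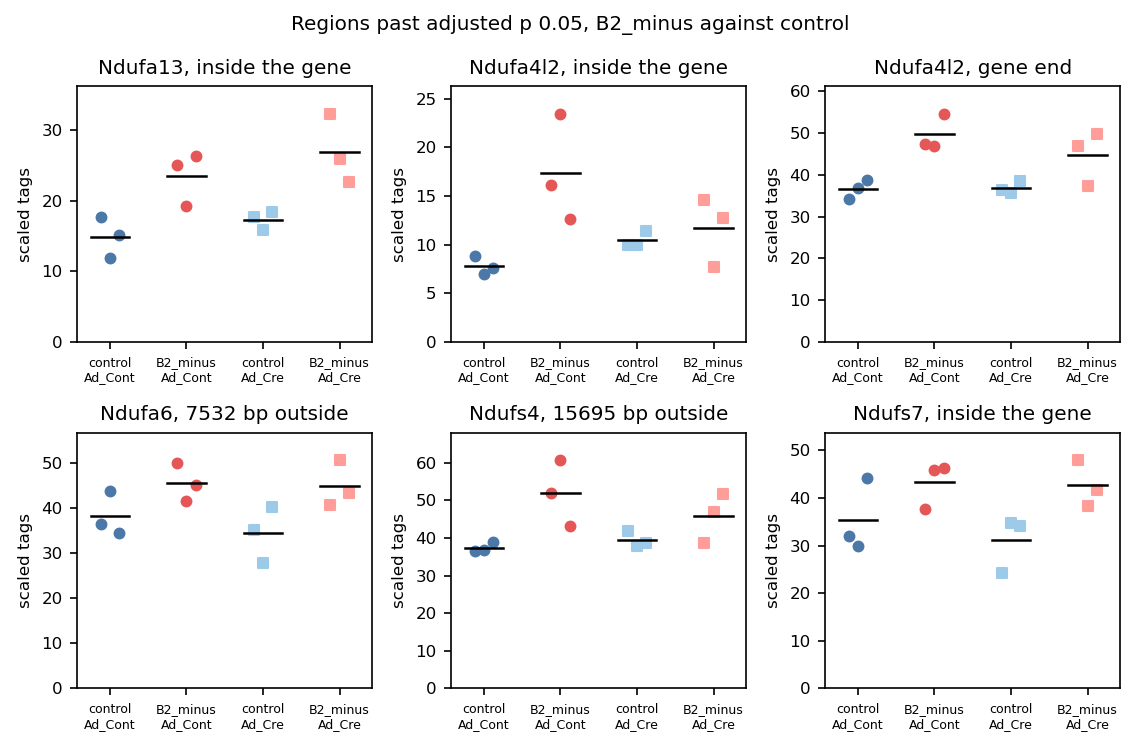
Scaled tags of the 6 called regions in each of the 12 libraries (points), with the mean of 3 libraries per group (bar) and axes from 0. The 6 B2_minus values lie above the 6 control values at Ndufa13, while at the other 5 regions at least 1 B2_minus library falls among the controls.

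Ndufa13, known also as GRIM-19, is an accessory subunit of the membrane arm. A region inside the gene (chr8:69897502-69898144) held 17.7, 11.9 and 15.1 scaled tags in control with Ad_Cont, 25.1, 19.2 and 26.3 in B2_minus with Ad_Cont, 17.6, 15.9 and 18.4 in control with Ad_Cre, and 32.3, 25.9 and 22.7 in B2_minus with Ad_Cre. Every B2_minus library lay above every control library, the only member where 6 and 6 libraries did not overlap (2.23% of all regions did not). The averaged log2 fold change was 0.64 (SE 0.155, adjusted p = 0.00402), a rise of 1.56-fold (95% interval 1.26 to 1.93), with 0.67 under Ad_Cont and 0.62 under Ad_Cre. The call held without any 1 of the 12 libraries, with changes of 0.57 to 0.71. It was lost when peaks of a region were summed (log2 fold change 0.49, adjusted p = 0.243). The start of the same gene changed by 0.01 (SE 0.075, adjusted p = 0.956), and a region across the end of the gene away from its start, equally near Yjefn3, by -0.38 (SE 0.181, adjusted p = 0.228).

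Ndufs7 had its called region inside the gene (chr10:80253630-80253897). It held 32.0, 29.9 and 44.3 in control with Ad_Cont, 37.6, 45.8 and 46.3 in B2_minus with Ad_Cont, 24.3, 34.8 and 34.2 in control with Ad_Cre, and 48.0, 38.3 and 41.7 in B2_minus with Ad_Cre. The diets were apart with Ad_Cre and overlapped with Ad_Cont through control replicate 3. The averaged change was 0.36 (SE 0.105, adjusted p = 0.0239). The call was lost, with adjusted p of 0.0571 to 0.0978 and changes of 0.29 to 0.34, without any 1 of 6 libraries: control with Ad_Cont replicates 1 and 2, B2_minus with Ad_Cont replicates 2 and 3, control with Ad_Cre replicate 1, and B2_minus with Ad_Cre replicate 1.

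Ndufs4 encodes an accessory subunit at the NADH end whose loss in mice causes a Leigh-like disease. Its called region lay 15695 bp outside the gene (chr13:114271729-114272100) and held 36.5, 36.8 and 38.9 in control and 52.0, 60.8 and 43.1 in B2_minus with Ad_Cont, then 41.9, 37.8 and 38.6 in control and 38.6, 46.9 and 51.7 in B2_minus with Ad_Cre. The diets were apart with Ad_Cont and overlapped with Ad_Cre. The averaged change was 0.35 (SE 0.095, adjusted p = 0.0126), while the other 10 tested regions of the gene changed by -0.17 to 0.18 and its start by -0.08 (adjusted p = 0.785). Without replicate 2 of B2_minus with Ad_Cont the adjusted p was 0.0676, and without replicate 3 of B2_minus with Ad_Cre 0.0700. Summing peaks gave 0.0943.

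Ndufa6, a matrix-arm subunit that binds the mitochondrial acyl carrier protein Ndufab1, had its called region 7532 bp outside the gene (chr15:82361823-82362085). It held 36.5, 43.8 and 34.5 in control and 50.2, 41.6 and 45.2 in B2_minus with Ad_Cont, and 35.3, 27.8 and 40.3 in control and 40.7, 50.8 and 43.5 in B2_minus with Ad_Cre. The averaged change was 0.32 (SE 0.099, adjusted p = 0.0365), the weakest of the 6: the adjusted p lay between 0.0518 and 0.149, with changes of 0.25 to 0.32, when any 1 of 7 libraries was left out (control with Ad_Cont replicates 1 and 3, B2_minus with Ad_Cont replicates 1 and 3, control with Ad_Cre replicates 1 and 2, B2_minus with Ad_Cre replicate 2). A second region 349 bp outside Ndufa6 just missed the threshold (log2 fold change 0.22, SE 0.076, adjusted p = 0.0631), and the start itself changed by -0.11 (SE 0.060, adjusted p = 0.317).

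Ndufa4l2, a relative of Ndufa4 known for its induction in hypoxia, had 2 called regions. The one at its gene end (chr10:127516665-127516954) held 34.3, 36.8 and 38.9 in control and 47.5, 46.9 and 54.7 in B2_minus with Ad_Cont, and 36.4, 35.8 and 38.6 in control and 46.9, 37.4 and 49.9 in B2_minus with Ad_Cre. B2_minus replicate 2 with Ad_Cre fell among the controls and the other 5 B2_minus libraries lay above them (averaged change 0.35, SE 0.096, adjusted p = 0.0131). The call was lost without replicate 3 of B2_minus with Ad_Cont (adjusted p = 0.0516), without replicate 3 of B2_minus with Ad_Cre (adjusted p = 0.0672) and with summed peaks (adjusted p = 0.0712).

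The second Ndufa4l2 region, inside the gene (chr10:127514348-127515043), was weak. It held 8.84, 6.97 and 7.56 in control and 16.1, 23.5 and 12.6 in B2_minus with Ad_Cont, and 9.92, 9.94 and 11.4 in control and 14.6, 7.66 and 12.7 in B2_minus with Ad_Cre. The control values lie near the lowest count that the peak lists hold (6 to 8 tags), so a lower level could not be seen. It was the member called with Ad_Cont alone (1.14, SE 0.263, adjusted p = 0.0112), against 0.14 (SE 0.262, adjusted p = 0.875) with Ad_Cre. The difference between the arms did not pass its own test (-1.001, SE 0.376, unadjusted p = 0.00863, adjusted p = 0.952). The averaged change was 0.64 (SE 0.187, adjusted p = 0.0215), and the adjusted p was 0.0514 to 0.0895, with changes of 0.52 to 0.64, without any 1 of 5 libraries (control with Ad_Cont replicates 2 and 3, B2_minus with Ad_Cont replicate 2, B2_minus with Ad_Cre replicates 1 and 3). The call with Ad_Cont alone was lost without control replicate 2 or 3 or B2_minus replicate 2, and under 4 of the other settings. The remaining 6 tested regions of Ndufa4l2 changed by -0.15 to 0.12, and the start of Ndufa4, a subunit of complex IV, by 0.12 (SE 0.078, adjusted p = 0.396). Without these 2 genes, 4 of 133 members were called.

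Of the falls, none passed the test. The largest in size was at a region 27931 bp from Ndufa8, a subunit on the intermembrane side, with 14.4, 16.9 and 14.0 in control and 8.96, 17.1 and 7.36 in B2_minus with Ad_Cont, and 12.1, 14.9 and 13.1 in control and 8.34, 10.5 and 9.97 in B2_minus with Ad_Cre (averaged change -0.47, SE 0.181, unadjusted p = 0.0110, adjusted p = 0.110). The diets were apart with Ad_Cre and overlapped with Ad_Cont through B2_minus replicate 2, without which the region was called (change -0.67, adjusted p = 0.0212). Leaving out the library that goes against the fall favours such a call, so no conclusion is drawn from it. Others with an unadjusted p under 0.05 were near Ndufs8 (-0.39, adjusted p = 0.178, 20 bp from the gene; -0.71 with Ad_Cre alone, adjusted p = 0.152), inside Ndufa10 (-0.38) and inside Ndufaf3 (-0.36), beside those at the Ndufa13 gene end and the Ndufb4 start given above. Rises of similar size that missed the threshold were inside Ndufa8 (0.42, adjusted p = 0.133), 902 bp outside Ndufaf4, an assembly factor (0.36, adjusted p = 0.134), and 15239 bp outside Ndufb3 (0.36, adjusted p = 0.246).

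**Figure D4:**
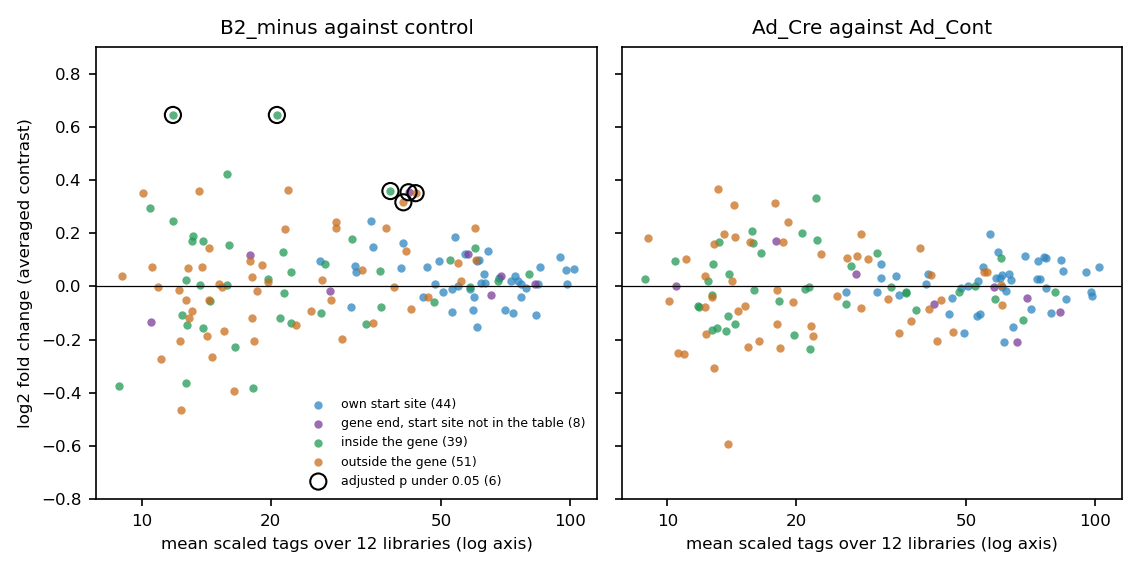
Log2 fold change (y axis) against mean level (x axis, log scale) for the 142 tested member regions, for B2_minus against control (left) and Ad_Cre against Ad_Cont (right), coloured by place (3 of the regions marked as inside a gene reach past its end). The 44 start sites lie near 0 in both panels, and the 6 circled regions of the left panel are the called ones; the right panel has none.

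Diet groups did not overlap at 14 members with Ad_Cont (10 higher, 4 lower in B2_minus, 9.86%) and at 19 with Ad_Cre (14 higher, 5 lower, 13.4%). The same was true of 17.3% and 17.5% of all regions. Separation of the diets was thus no more frequent at members than at regions in general.

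Ad_Cre against Ad_Cont moved no member past the threshold. There were 0 calls in control (0.00591% of all regions were called), 0 in B2_minus (0.00197%) and 0 averaged over diets (0.0955%), and at an unadjusted p under 0.05 there were 8, 7 and 9 members. These are 5.63%, 4.93% and 6.34% of the members, against 7.82%, 7.29% and 9.87% of all regions. DESeq2 also called 0 in each. Ahr itself had 9 tested regions, none of them called in any contrast, and as the floxed interval is not given this does not check the deletion. The largest shift was at a weak region 9600 bp from Ndufv1 (chr19:4022355-4022760), with 17.7, 18.9 and 16.2 scaled tags in control and 15.2, 17.1 and 14.7 in B2_minus with Ad_Cont, and 13.2, 8.95 and 7.89 in control and 9.39, 9.58 and 17.2 in B2_minus with Ad_Cre. All Ad_Cre libraries except replicate 3 of B2_minus lay below all Ad_Cont libraries (averaged change -0.59, SE 0.178, unadjusted p = 0.00110, adjusted p = 0.145). Other starts with an unadjusted p under 0.05 were those of Ndufb3, shared with Fam126b (-0.21), Ndufb8 (-0.18), Ndufa3 (-0.15) and Ndufa4 (0.20), and the gene end of Ndufb9, shared with Tatdn1 (-0.21).

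No member showed a diet effect that differed between Ad_Cont and Ad_Cre (0 calls, 0.0% of all regions, DESeq2 also 0). At an unadjusted p under 0.05 there were 6 of 142 (4.23%, against 5.14% of all regions). The Ndufb7 start had the lowest such p (0.00743, adjusted p = 0.952), with 63.0, 68.7 and 63.7 in control and 54.7, 66.1 and 55.8 in B2_minus with Ad_Cont, and 62.9, 48.7 and 64.0 in control and 66.8, 73.8 and 68.0 in B2_minus with Ad_Cre.

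The 555 members outside the test were mostly weak sites. Of these, 287 were listed in 1 library, 171 in 2 to 5 and 97 in 6 to 11, and their highest tag count had a median of 8 and reached 52. Only 1 was listed in all 6 libraries of one diet and at most 1 of the other, a region inside Ndufaf2 (chr13:108152436-108152900), the gene of a late assembly factor. It was listed with 6 to 10 tags in the 6 B2_minus libraries and with 7 in replicate 2 of control with Ad_Cre, close to the lowest listed count, and a missing peak says only that the site fell below that count. Such regions made up 0.143% of members and 0.0901% of all regions. Ndufb4b and Ndufb4c had no region in any library.

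Other genes of the respiratory chain were tested in the same fit, with regions assigned by the same rule. In the averaged contrast 2 of 30 complex II regions rose and 1 fell, and 2 of 31 complex III regions rose. In complex IV 1 of 27 regions rose, and in complex V 1 of 46 rose and 1 fell. Over all regions 5.78% were called in either direction and 2.45% were called higher. Of the 26 regions of complex I assembly factors named otherwise, 1 rose, near Tmem70 (0.37, SE 0.107, adjusted p = 0.0191). Complex II holds a covalently bound flavin, and the region of lowest adjusted p, 5155 bp from Sdhd, which encodes a membrane anchor of it, averaged 27.1 and 31.4 scaled tags in control and 15.9 and 23.1 in B2_minus with Ad_Cont and Ad_Cre (-0.61, SE 0.142, adjusted p = 0.00263). A region inside Sdhc, the other anchor, rose by 0.48 (SE 0.130, adjusted p = 0.0120). The other complex II rise was inside Sdha (0.52, SE 0.143, adjusted p = 0.0156). In complex V a region inside Atp5c1 rose by 0.42 (SE 0.116, adjusted p = 0.0147) and one 37821 bp from Atp5o fell by 0.36 (SE 0.0974, adjusted p = 0.0131). Of 95 regions of 12 regulators of mitochondrial genes 1 was called, inside Ppargc1a, which encodes the coactivator PGC-1alpha (20.6 and 16.7 in control against 11.8 and 10.3 in B2_minus, -0.76, SE 0.178, adjusted p = 0.00286). None of 20 regions of 5 genes for the supply of FMN and FAD was called.

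Hepatocyte markers were open, as 10 of 10 marker genes had tested regions, but markers of other liver cells were also represented (8 of 8 endothelial, stellate and bile duct genes, and 3 of 8 Kupffer cell genes). In the averaged contrast 7 of 121 hepatocyte marker regions rose and 3 fell, and 3 of 50 endothelial regions rose and 3 fell. Of the other lists, 5 of 35 stellate, 6 of 63 bile duct and 1 of 9 Kupffer cell regions fell with none rising. Over all 101575 regions 5.78% were called, 2484 higher and 3383 lower. Summed over its list, the stellate level was 893 to 1011 scaled tags in control and 835 to 870 in B2_minus with Ad_Cont, and 950 to 1017 in control and 826 to 919 in B2_minus with Ad_Cre. The hepatocyte level was 3260 to 3310 and 3327 to 3411 with Ad_Cont, and 3124 to 3236 and 3350 to 3410 with Ad_Cre. Both lists separated the diets in both arms. The bile duct level was 1951 to 1967 and 1858 to 1903 with Ad_Cont, and 1912 to 1996 and 1815 to 1914 with Ad_Cre, the endothelial level 1272 to 1337 and 1323 to 1373, then 1288 to 1327 and 1352 to 1392, and the Kupffer cell level 172 to 196 and 178 to 187, then 194 to 213 and 169 to 199. The part of these lists in the 6 calls was not tested. In bulk libraries fewer cells of a type and less accessible DNA per cell cannot be told apart.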

How the data were processed

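ATAC-seq peak lists of 12 mouse hepatocyte libraries, 3 in each of 4 groups, were used; the HepG2 libraries of the series were not used here. The submitters' processing notes name Bowtie2, HOMER and the builds mm10 and hg38 without versions, settings or roles. The deposited lists give 1 list per library, and the authors' values in their seventh column were taken as tag counts per peak because they are whole numbers; how they were counted, and any read shifting or duplicate removal, is not given in the sources used here. The lists hold only called peaks (200698 to 281141 per library, 3897632 to 5557678 tags), so sequencing depth is unknown, and a peak below the lowest listed count is missing. Peaks on Y or unplaced sequences (0.151%) were left out.

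Regions with a peak in all 12 libraries (101575 of 642948), each given its highest peak count, were tested with edgeR 4.0.16 (R 4.3.3): TMM scaling, glmQLFit and glmQLFTest, 4 groups in 1 fit, 7 contrasts, Benjamini-Hochberg adjustment over all regions in each, called at an adjusted p under 0.05. All p-values printed are two-sided and from this fit unless another tool or setting is named. Those given for a left-out library or for summed peaks come from separate edgeR fits. The script was tested on simulated independent counts. The replicates here varied less than such counts do, so that simulation does not show how far the calls hold. Genes and start sites came from RefSeq (GRCm38.p6). limma 3.58.1, DESeq2 1.42.0, other scalings and filters, a replicate block and leaving out each library were tried. Members and gene lists were chosen with earlier results of these data known. The regions named were those near the ends of the 7 core genes, those called, and the largest changes with an unadjusted p under 0.05. These changes were up to 8 rises and up to 8 falls (8 and 6 were found). Also named were the 5 highest and 5 lowest genes by level, and the 5 genes of the other lists with the lowest adjusted p. Further ones (Ndufb5, Ndufb7, Sdha, Tmem70, the start sites of genes with a called region and the Ad_Cre list) were chosen after their values were seen. One gene that the rule names is not reported here.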

Additional observations from a re-analysis of the deposited data

How the results depend on the processing

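With library sizes taken from all listed tags, which raised the median log2 fold change of all regions by 0.10, that of the members was 0.12 in place of 0.02, and calls rose to 15 in the averaged diet contrast, 9 with Ad_Cre and 2 with Ad_Cont. These were 10.6%, 6.34% and 1.41% of the members, where 11.6%, 4.49% and 0.996% of all regions were called. Summing the peaks of a region left 1 averaged call and 0 with Ad_Cont. Of all 101575 regions, summing called 433 higher and 1036 lower averaged, and 14 and 16 with Ad_Cont. The edgeR fit bounded at counting noise and DESeq2 left 0 member calls in both contrasts. For regions with a peak in at least 3 libraries, each missing peak was set to the lowest listed count of its library. This setting gave 0 calls with Ad_Cont and 5 averaged (4 higher, 1 lower, of 338), 3 of them shared with the 6. Of all 252554 such regions, 15 higher and 12 lower were called with Ad_Cont, and 3275 and 889 averaged. Leaving out Ndufa4 and Ndufa4l2, chosen after seeing the data, gave 0 calls with Ad_Cont and 4 averaged. Leaving out 1 library gave 3 to 6 averaged calls, 0 to 2 with Ad_Cont and 0 to 1 with Ad_Cre. DESeq2 size factors, limma, the 10 kb limit and the single nearest gene gave 5 or 6 averaged calls. Calls for Ad_Cre against Ad_Cont and for the difference between arms were 0 in each setting run. The cause of these shifts was not tested.

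Over all 101575 regions the averaged contrast called 2484 higher and 3383 lower. It called 9753 and 1998 with listed tags, 433 and 1036 with summed peaks, 265 and 731 in the bounded fit and 11 and 34 by DESeq2. Over the 252554 regions listed in 3 or more libraries it called 3275 and 889.

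Small changes turned sign. The region 373 bp from Ndufs3 (-0.01) was 0.081 with listed tags, 0.10 with at least 3 libraries, 0.032 by limma and -0.14 to 0.29 without 1 library. The Ndufs7 start (0.02) was -0.13 with summed peaks and -0.0012 to 0.050 without 1 library. Another Ndufs7 region (chr10:80255623) was -0.048 with summed peaks, -0.00078 by limma and -0.12 to 0.11 without 1 library. Without 1 library the Ndufv2 start was -0.021 to 0.039 and the region 9600 bp from Ndufv1 -0.11 to 0.18. With the replicate block 6 averaged calls and 1 with Ad_Cont were found, as without it. Libraries of the same replicate number did not clearly deviate together (r of -0.016 to 0.012 over 18 pairs, 0 above 0.1). Libraries of unlike number in different groups gave r of -0.013 to 0.014 over 36 pairs. The spread between replicates was below counting noise, so this check cannot tell whether the numbers pair libraries.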

Other observations

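The number of weak member regions listed varied among replicates. Of the members without a peak in all 12 libraries, control with Ad_Cont listed 93, 166 and 104 in its 3 replicates, B2_minus with Ad_Cont 113, 126 and 132, control with Ad_Cre 149, 167 and 164, and B2_minus with Ad_Cre 143, 108 and 135.

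Start regions equally near a second gene were about as open as the rest: 18 such gene-start regions had a median of 61.0 scaled tags and the 28 others 62.5. On X, 50.8% of all start-site regions averaged below 40 scaled tags, against 30.1% on autosomes; Ndufa1 and Ndufb11 were both below that level.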
